A study of Oryza sativa Japonica Group with 8 samples.

Results

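The cold responses of transgenic and non-transgenic rice seedlings were compared gene by gene, as the change from room temperature to cold in the transgenic line minus the same change in its control. All 8 libraries of the series enter this contrast, (T_CS - T_RT) - (N_CS - N_RT), since it needs all 4 groups. The libraries enter by their sample labels, while the question and the gene lists were chosen with earlier results of these data known.

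The seedlings were of the japonica rice cultivar Taipei 309. T stands for lines in which an RD29A:DREB1a gene, the Arabidopsis DREB1a coding region behind the stress-inducible Arabidopsis RD29A promoter, sits with the marker genes NPTII, GUS, GFP and pporRFP at 1 genomic site. N, labelled wild type, is according to the study's methods the parental T5 founder line into whose Cre-lox site the gene stack was placed. By the labels, homozygous lines 11, 20 and 29 were combined as T, whereas the methods list lines 11 and 29. Seedlings 10 days old were kept at room temperature (RT) or put on crushed ice in a 4°C chamber for 20 h as a cold shock (CS), and RT plates were held for the same hours of day. RNA of the aerial parts of 6 seedlings was pooled for each of N_RT, N_CS, T_RT and T_CS, and 2 libraries were made from each pool. Every SD, SE and p-value below thus describes pools, without the variation from plant to plant, and a difference between plants of a pool and an effect of genotype or cold cannot be told apart. T differs from N by the whole gene stack, so that effects of DREB1a and of the marker genes cannot be told apart either. In these bulk samples, fewer cells of a type and less RNA per cell cannot be distinguished. The labelled tissue was not checked against marker genes, because no table at hand pairs the gene IDs of the files with names.

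Plants of temperate climates acclimate to cold largely through DREB1 factors, also called CBF, which bind the DRE element of many stress gene promoters. In Arabidopsis, cold induces the DREB1 genes within hours, and the encoded activators switch on genes for protective proteins, sugar metabolism and hormone signaling. Rice has its own DREB1 family. Reads of the transgene itself were not analysed here.

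The libraries held 18963211 to 24405824 counts, with TMM scaling factors of 0.935 to 1.07. Of 38978 IDs, 28218 had enough counts to be tested in an edgeR quasi-likelihood fit, with p-values adjusted over all of them (FDR). A gene was said to rise, fall or respond differently when its FDR was at most 0.01. Levels are CPM, the counts of a gene per 1000000 counts of its library, after TMM scaling, and a response is log2 (CS/RT) ± SE over 2 libraries a group. A positive difference means that the response was the more positive in T. A floor of 3 counts over a group equalled 0.0642 to 0.0800 CPM. For the difference of responses, the median SE was 0.18 (log2).

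The 2 genotypes responded to cold differently in many genes. The difference passed the test in 9220 genes (32.7% of those tested), of which 3386 differed by at least 1 and 967 by at least 2 on the log2 scale. The response was the more positive in T in 4810 genes (17%) and in N in 4410 (15.6%), and the median over all genes was -0.04. The share of genes passing the test rose with the level: it was 3.35% among the 2178 genes below 1 CPM in their highest group, where the median SE was 0.91, and 72.8% among the 2470 genes at 100 CPM or more, where the median SE was 0.059. Among genes that passed, the median absolute difference was 4.01 below 1 CPM and 0.54 at 100 CPM or more, so that weakly expressed genes enter the classes below with larger differences than abundant ones.

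Cold moved more genes in T than in N. The response passed the test in 14780 genes in T (52.4%) and in 11498 genes in N (40.7%), and its median absolute size over all genes was 0.45 in T and 0.33 in N. Of the 9220 genes with different responses, 6316 (68.5%) had the larger absolute response in T, beside 60.6% of all genes tested. Across the 28218 genes, the responses in T and N had a Pearson's r of 0.40 and a Spearman's rho of 0.38. These responses share no library, but genes are not independent replicates and no p-value is given.

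Genes that moved strongly were compared with the other genotype. Of 519 genes that rose by at least 2 on the log2 scale in T, 167 (32.2%) also rose in N, 66 fell there and 286 did not pass the test, and their median response in N was 0.17. Of 766 genes that fell by at least 2 in T, 378 (49.3%) also fell in N and 43 rose there. Conversely, 137 of 251 genes (54.6%) that rose by at least 2 in N also rose in T, and 241 of 327 genes (73.7%) that fell by at least 2 in N also fell in T. Over all genes tested, 19.7% rose and 21.1% fell in N, and 26.2% rose and 26.2% fell in T. The difference of responses itself passed in 333 (64.2%), 398 (52%), 118 (47%) and 109 (33.3%) of these genes, in the same order. Its share over all genes was 32.7%. Each set was picked by a large response that itself enters this difference, in the same libraries. Shares above that of all genes, and smaller median responses in the other genotype, are thus partly built in by the choice. The shares therefore cannot tell whether strongly moved genes differed between genotypes more often than other genes, and no conclusion is drawn from them.

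**Figure D1:**
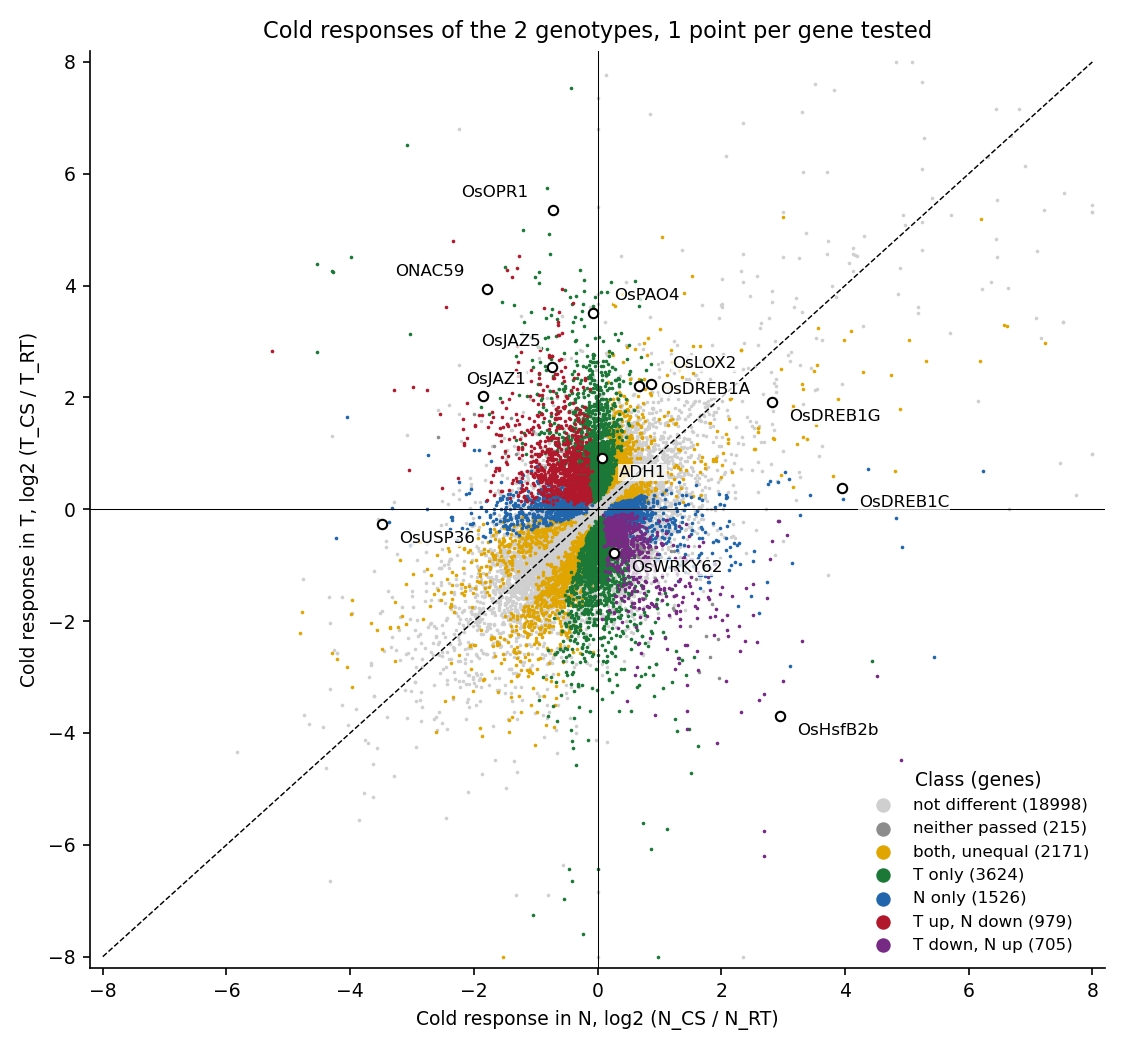
Cold response in T (vertical axis, log2 T_CS/T_RT) against that in N (horizontal axis, log2 N_CS/N_RT), with 1 point for each of 28218 genes, coloured by response class; responses beyond 8 are drawn at the edge, and the dashed line marks equal responses. Genes of opposite response fill the upper left (979) and lower right (705), and open circles mark named genes such as OsHsfB2b, which lies in the lower right.

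The 9220 genes were sorted by what each genotype did. The largest group responded in T alone: 1973 genes (6.99% of those tested) rose in T without passing the test in N, with median responses of 0.79 in T and -0.04 in N, and 1651 (5.85%) fell in T alone, with medians of -0.89 and 0.03. Opposite responses were found in 1684 genes. Of these, 979 (3.47%) rose in T and fell in N, with medians of 0.66 and -0.52, and 705 (2.5%) did the reverse, with medians of -0.60 and 0.45. The class that rose in T and fell in N had a median difference of 1.25 and held 202 of the 967 differences of at least 2.

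Responses of N alone were fewer and smaller. A total of 799 genes (2.83%) rose and 727 (2.58%) fell in N without passing in T, with median responses in N of 0.48 and -0.67. Among the genes that moved the same way in both genotypes, 681 (2.41%) rose more in T, 266 (0.943%) rose more in N, 855 (3.03%) fell more in T and 369 (1.31%) fell more in N. In 215 genes (0.762%) the difference passed although neither response did. Class sizes changed when 1 library was left out. Genes that rose in N alone numbered 485 without N_RT replicate 1 and 509 without N_RT replicate 2. Genes that rose in both but more in T numbered 425 without N_RT replicate 1.

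**Figure D2:**
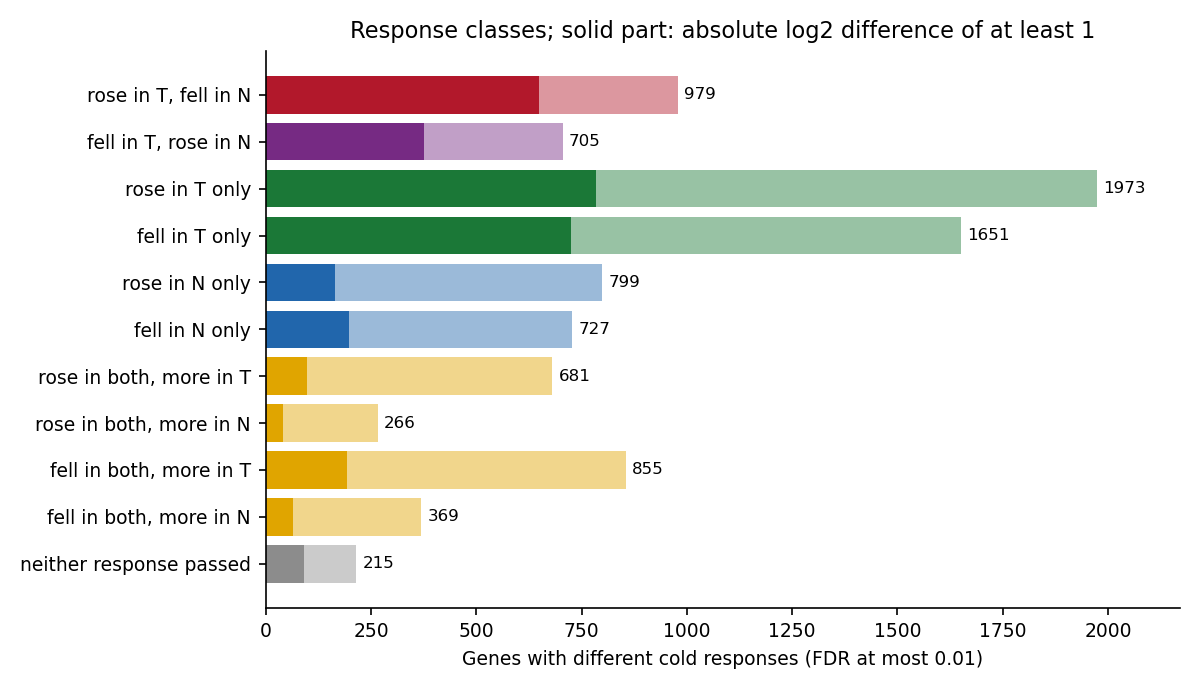
Number of genes in each response class among the 9220 genes whose cold responses differed (horizontal axis: genes), with the solid part of each bar showing genes that differed by at least 1 on the log2 scale. The bars for T alone (1973 and 1651) are the longest, and the solid part is largest as a share in the class that rose in T and fell in N (649 of 979).

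A test that is not passed does not show that a gene was silent to cold. A response was therefore called particular to 1 genotype in a strict sense when it passed its test and reached at least 1 on the log2 scale there. The difference of responses also had to pass its test. In addition, the 95% interval of the response in the other genotype had to lie within -0.5 to 0.5. By this rule 496 genes (1.76%) rose and 318 (1.13%) fell in T, while 30 (0.106%) rose and 139 (0.493%) fell in N. The rule bounds the size of the other response and does not require that response to miss its test. Genes with a small opposite response can therefore be among them, such as Lip5, which fell by 0.39 in N. The medians of the 496 genes were 1.38 in T and 0.02 in N.

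Names could be given to the 65 genes that the study lists with an ID and to genes of the organelles. The 65 were picked by the study largely for being higher in T_CS than in N_CS in these same libraries. Their direction is therefore not independent evidence, and the same holds for the counts in each list of them below. Of the 59 tested, 42 had a positive difference (17% of all genes tested) and 4 a negative one (15.6%), and their median difference was 3.06 against -0.04 over all genes. In T, 51 rose (26.2% of all genes) and 3 fell (26.2%), whereas in N 7 rose (19.7%) and 16 fell (21.1%), with median responses of 2.42 in T and -0.47 in N. At room temperature 24 were higher in T than in N (9.44%) and 7 were lower (7.49%), and in the cold 56 were higher (21.4%). By class, 24 rose in T alone, 13 rose in T and fell in N, 3 fell in N alone and 3 rose in both. The classes of OsHsfB2b, OsWRKY62 and OsDREB1C held no other named gene.

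**Figure D3:**
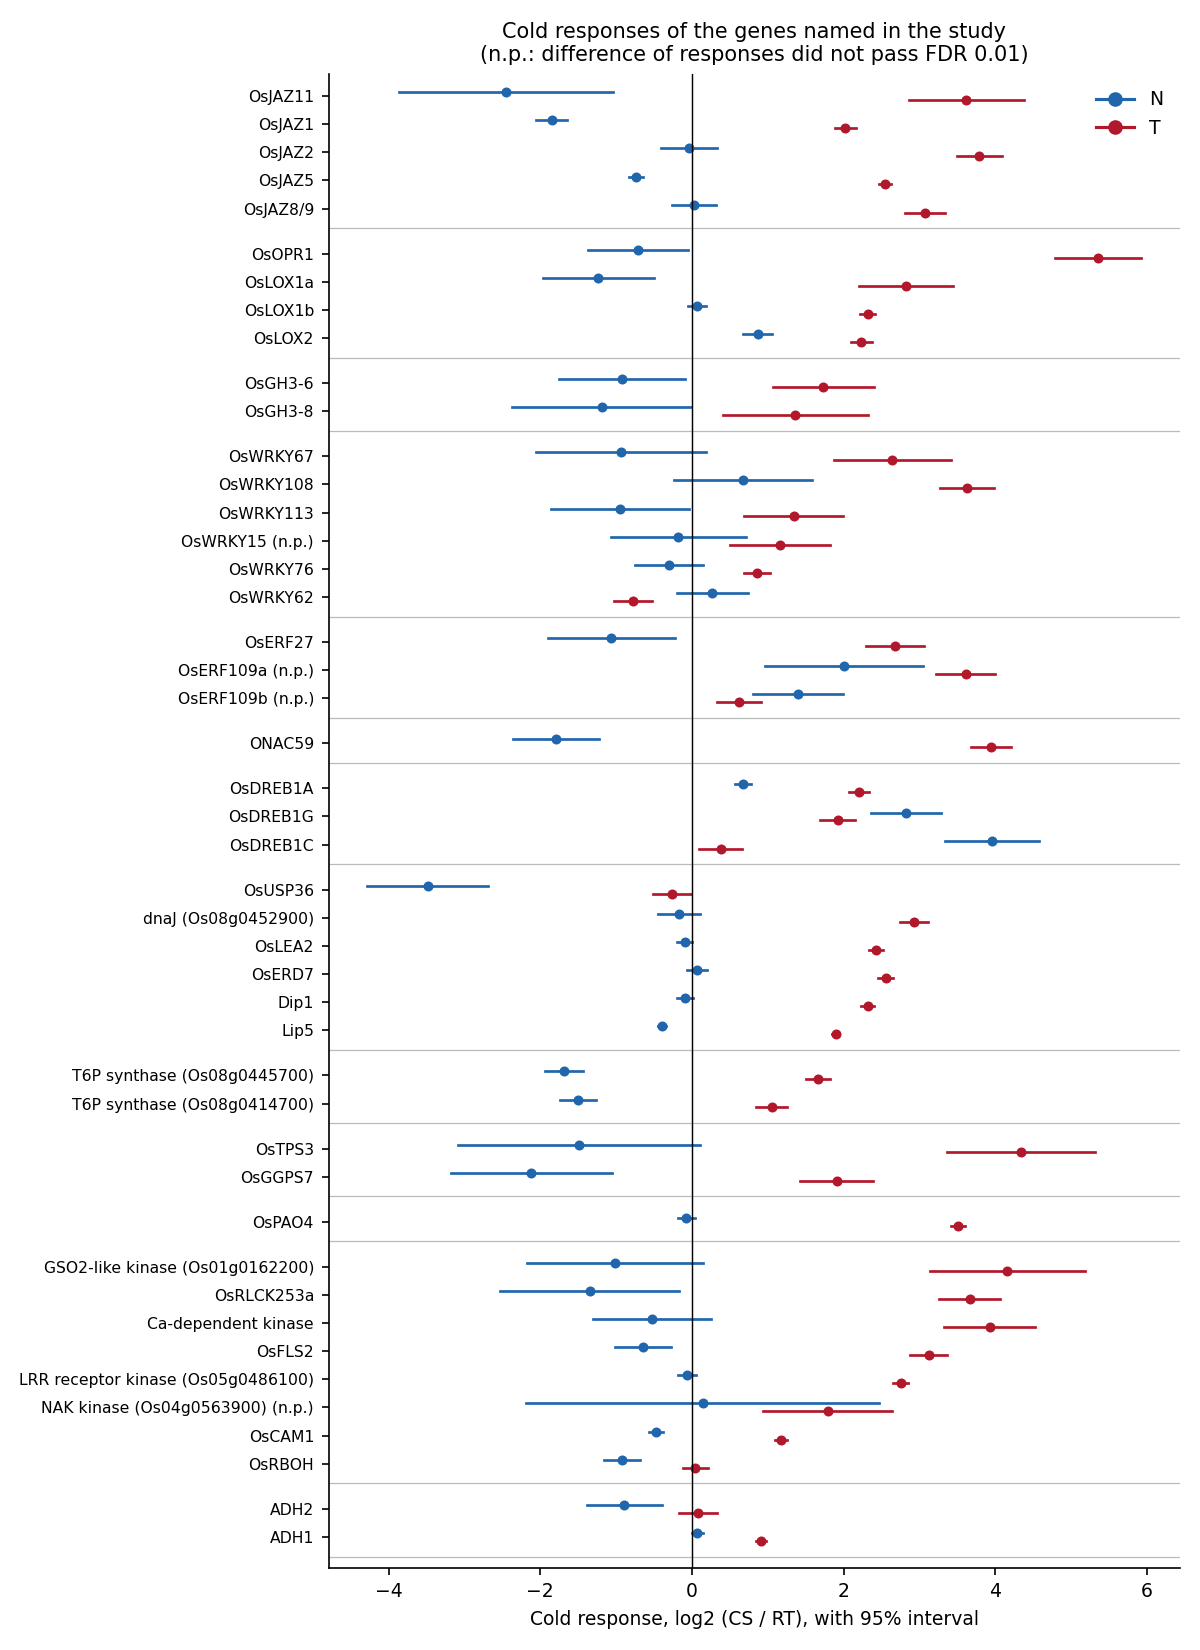
Cold responses (horizontal axis, log2 CS/RT) of 45 study-named genes with more than 3 counts in every group, in N (blue) and T (red), with 95% intervals, in blocks by gene list. Most red points lie near or above 2 while most blue points lie at or below 0, and OsDREB1C, OsDREB1G and OsERF109b are among those with the larger response in N.

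JAZ proteins repress jasmonate-responsive transcription until the hormone triggers their breakdown, and their genes are themselves induced by jasmonate. All 5 JAZ genes tested had the more positive response in T (17% of all genes tested), with differences of 3.05 to 6.07. In N, 3 of them fell (21.1% of all genes) and none rose (19.7%). OsJAZ1 was at 27.3 and 25.9 CPM in N_RT against 7.30 and 7.48 in N_CS, and 21.6 and 21.7 in T_RT against 89.7 and 86.5 in T_CS. Its 4 groups did not overlap, and cold moved it down in N and up in T from nearly the same level. The response was -1.85 ± 0.10 in N and 2.02 ± 0.07 in T, and the difference was 3.87 ± 0.12 (FDR 4.81e-40). OsJAZ5 stood at 81.7 and 85.8 CPM in N_RT against 49.8 and 50.3 in N_CS, and 74.4 and 71.6 in T_RT against 416 and 438 in T_CS. Both N_CS libraries were the lowest and both T_CS libraries the highest of the 8, with a difference of 3.29 ± 0.06 (FDR 2.92e-51).

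OsJAZ2 and OsJAZ8/9 rose in T alone. OsJAZ2 had 3.15 and 3.21 CPM in N_RT against 3.23 and 2.94 in N_CS, and 3.17 and 2.59 in T_RT against 39.8 and 39.7 in T_CS. The first 3 groups overlapped and only T_CS stood apart, with responses of -0.04 ± 0.19 in N and 3.79 ± 0.15 in T. OsJAZ8/9 had 6.54 and 7.44 CPM in N_RT against 7.61 and 6.50 in N_CS, and 3.76 and 6.03 in T_RT against 42.0 and 41.4 in T_CS. Here both T_RT libraries lay below all N libraries, and the responses were 0.03 ± 0.14 in N and 3.07 ± 0.13 in T. OsJAZ11 had the largest difference of the JAZ genes tested, 6.07 ± 0.80 (FDR 3.59e-12), on low counts in 3 of the groups. Its libraries held 1.12 and 0.438 CPM in N_RT against 0.0885 and 0.206 in N_CS, and 0.635 and 0.405 in T_RT against 6.28 and 6.47 in T_CS. The fall in N, by 2.45, did not pass without N_RT replicate 1 (-1.61, FDR 0.099) or N_CS replicate 1 (-1.94, FDR 0.019), so the class of OsJAZ11 rests on these libraries while its difference does not.

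Of the enzymes of jasmonate synthesis, lipoxygenases oxidize polyunsaturated fatty acids and 12-oxophytodienoate reductases (OPR) act on the cyclic products. Of the 5 genes, 4 had a positive difference (17% of all genes tested) and all rose in T (26.2%). OsOPR1 was at 1.04 and 1.70 CPM in N_RT against 0.663 and 0.981 in N_CS, and 0.635 and 0.729 in T_RT against 26.3 and 30.3 in T_CS. All N and T_RT libraries lay below 2 CPM, and both T_CS libraries far above them. The response was 5.36 ± 0.28 in T and -0.72 ± 0.33 in N, with a difference of 6.07 ± 0.43 (FDR 6.87e-21). The neighbouring ID Os06g0216350 has nearly the same counts in each library, so that the reads may belong to 1 transcript and the share of OsOPR1 is uncertain.

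The 3 lipoxygenase genes fell into 3 classes. OsLOX1a was at 1.42 and 1.99 CPM in N_RT against 0.929 and 0.465 in N_CS, and 0.997 and 0.729 in T_RT against 5.58 and 6.64 in T_CS. It fell by 1.24 ± 0.37 in N and rose by 2.82 ± 0.31 in T, with a difference of 4.06 ± 0.48 (FDR 7.49e-12). The fall in N was lost without N_RT replicate 2 (FDR 0.0395) or N_CS replicate 2 (FDR 0.0722). OsLOX1b rose in T alone, from 39.7 and 42.3 to 203 and 207 CPM, while N had 35.4 and 35.8 CPM at RT and 37.3 and 37.1 in the cold. OsLOX2 rose in both genotypes and more in T. Its levels were 11.6 and 9.63 CPM in N_RT against 20.2 and 18.7 in N_CS, and 22.8 and 21.9 in T_RT against a mean of 105 ± 6.4 (SD, n = 2) in T_CS, so that T at room temperature stood a little above N in the cold. The responses were 0.86 ± 0.10 in N and 2.24 ± 0.07 in T, a difference of 1.37 ± 0.12 (FDR 6.56e-16).

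GH3 enzymes couple auxin to amino acids and so lower free auxin. Both GH3 genes rose in T alone (6.99% of all genes tested). OsGH3-6 had 0.846 and 1.65 CPM in N_RT against 0.796 and 0.465 in N_CS, and 0.997 and 1.01 in T_RT against 3.75 and 2.92 in T_CS, with a difference of 2.65 ± 0.53 (FDR 1.78e-05). Without N_RT replicate 1, it also passed as a fall in N (-1.39, FDR 9.86e-03). OsGH3-8 had 0.577 and 0.876 CPM in N_RT, 0.310 in each N_CS library, 0.680 and 0.405 in T_RT, and 1.17 and 1.63 in T_CS. Its difference of 2.56 ± 0.76 (FDR 3.07e-03) did not pass without N_RT replicate 2 (FDR 0.0283), N_CS replicate 1 (0.0135) or 2 (0.0109), T_RT replicate 2 (0.0239) or T_CS replicate 2 (0.0198). Its rise in T, by 1.36 ± 0.48 (FDR 8.80e-03), did not pass without either N_RT, either T_RT or either T_CS library (FDR 0.0104 to 0.125).

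WRKY proteins are plant transcription factors of defence and abiotic stress. Of 8 WRKY genes, 5 had a positive difference (17% of all genes tested), 1 a negative difference (15.6%), and 2 did not pass. OsWRKY108 rose in T alone, with 0.308 and 0.486 CPM in N_RT against 0.487 and 0.774 in N_CS, and 2.31 and 2.27 in T_RT against 30.5 and 26.1 in T_CS. T exceeded N at both temperatures, and the responses of 0.67 ± 0.46 in N and 3.63 ± 0.18 in T differed by 2.95 ± 0.49 (FDR 3.67e-06). OsWRKY67 was between 0.310 and 0.810 CPM in the 6 libraries other than T_CS, which had 3.95 and 3.54, and its difference was 3.58 ± 0.68 (FDR 4.37e-06). OsWRKY113 moved less, to 2.84 and 2.70 CPM in T_CS from 1.09 in each T_RT library, against 0.846 and 1.02 in N_RT and 0.487 and 0.465 in N_CS, with a difference of 2.29 ± 0.56 (FDR 3.75e-04). OsWRKY8 had 18 counts in N_RT against 3 in N_CS, and 14 in T_RT against 317 in T_CS. Scaled to library size, its counts in T_CS were 28.2 times those in T_RT (95% counting interval 16.6 to 52.2), while those in N_CS were 0.185 times those in N_RT (0.0349 to 0.633). The fall of OsWRKY8 in N did not pass without any 1 of the 4 N libraries (FDR 0.0172 to 0.104) or without T_CS replicate 1 (FDR 0.0104).

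OsWRKY76 and OsWRKY62, related repressors of defence genes with neighbouring IDs, both stood higher in T than in N at room temperature and then parted in the cold. OsWRKY76 was at 2.11 and 2.53 CPM in N_RT against 1.99 and 1.70 in N_CS, and 23.2 and 23.8 in T_RT against 40.3 and 45.3 in T_CS. OsWRKY62 was at 1.73 and 1.75 CPM in N_RT against 2.08 and 2.12 in N_CS, and 15.6 and 17.3 in T_RT against 9.43 and 9.78 in T_CS. In T the libraries of RT and CS did not overlap for either gene, but OsWRKY76 rose by 0.86 ± 0.09 and OsWRKY62 fell by 0.78 ± 0.13. The difference of responses was 1.17 ± 0.24 (FDR 3.76e-05) for OsWRKY76 and -1.05 ± 0.27 (FDR 9.44e-04) for OsWRKY62.

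Among the other transcription factor genes, ONAC59, of the NAC family, responded in opposite directions. It had 2.85 and 2.77 CPM in N_RT against 0.929 and 0.671 in N_CS, and 3.44 and 3.85 in T_RT against 54.5 and 58.4 in T_CS. The 4 groups did not overlap, and the responses of -1.79 ± 0.28 in N and 3.95 ± 0.13 in T differed by 5.74 ± 0.31 (FDR 4.31e-28). The bHLH148-like gene, for a basic helix-loop-helix protein, had 4 counts in N_RT and 2 in N_CS, but 39 in T_RT and 953 in T_CS. Within T the scaled ratio of cold to room temperature was 30.5 (95% counting interval 22.1 to 43.1), and in N it was 0.555, with an interval from 0.0502 to 3.87 that leaves the response of N undetermined. OsERF27 was the only 1 of 6 ethylene response factor (ERF) genes whose difference passed (32.7% of all genes tested). It stood at 0.961 and 1.26 CPM in N_RT against 0.796 and 0.206 in N_CS, and 3.58 and 2.11 in T_RT against 17.9 and 18.1 in T_CS, and its difference was 3.74 ± 0.46 (FDR 4.16e-11). It rose in T alone, but without N_CS replicate 1 its fall in N also passed (-2.38, FDR 8.75e-04).

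A difference was not shown for the other 5 ERF genes. OsERF109a rose in both genotypes, from 0.154 and 0.292 to 0.752 and 1.03 CPM in N and from 1.77 and 1.78 to 22.4 and 21.1 CPM in T. The difference of 1.6 ± 0.56 had an FDR of 0.0292, with a 95% interval of 0.49 to 2.71, and without N_RT replicate 1 the rise in N did not pass (FDR 0.0237). OsERF109b also rose in both, with a difference of -0.78 ± 0.33 (FDR 0.0454), and its rise in T did not pass without T_CS replicate 2 (FDR 0.0259). OsERF67, OsERF108 and OsERF118 had at most 2 counts in each N group, so that no response of N could be measured.

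The rice DREB1 genes, relatives of the transgene's DREB1a, did not share 1 pattern. All 3 rose with cold in N, yet 1 had the larger response in T and 2 the larger response in N. OsDREB1C was at 0.577 and 0.486 CPM in N_RT against 8.18 and 8.62 in N_CS, and 7.80 and 8.46 in T_RT against 11.3 and 9.84 in T_CS. The N_RT libraries alone were low, and T at room temperature overlapped N in the cold. The response was 3.95 ± 0.31 in N and 0.38 ± 0.14 in T, where it did not pass (FDR 0.016), and the difference was -3.57 ± 0.34 (FDR 2.97e-17).

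OsDREB1G had 1.04 and 1.51 CPM in N_RT against 7.39 and 10.5 in N_CS, and 9.52 and 8.75 in T_RT against 33.2 and 35.8 in T_CS. As for OsDREB1C, T_RT overlapped N_CS, but here cold raised T further, by 1.92 ± 0.12 against 2.83 ± 0.23 in N. The difference of -0.91 ± 0.26 (FDR 1.85e-03) was lost without N_RT replicate 1 (-0.60, FDR 0.119) or N_CS replicate 2 (-0.64, FDR 0.0409). OsDREB1A went the other way at room temperature. It had 63.7 and 59.3 CPM in N_RT against 95.4 and 102 in N_CS, and 19.2 and 20.9 in T_RT against 95.5 and 89.7 in T_CS. The T_RT libraries were the lowest and the 2 cold groups overlapped, so that T and N differed by -1.62 ± 0.07 at RT (FDR 1.6e-32) and by -0.09 ± 0.05 in the cold (FDR 0.145). OsDREB1A thus rose by 2.21 ± 0.06 in T and 0.68 ± 0.05 in N, a difference of 1.53 ± 0.08 (FDR 6.28e-26).

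**Figure D4:**
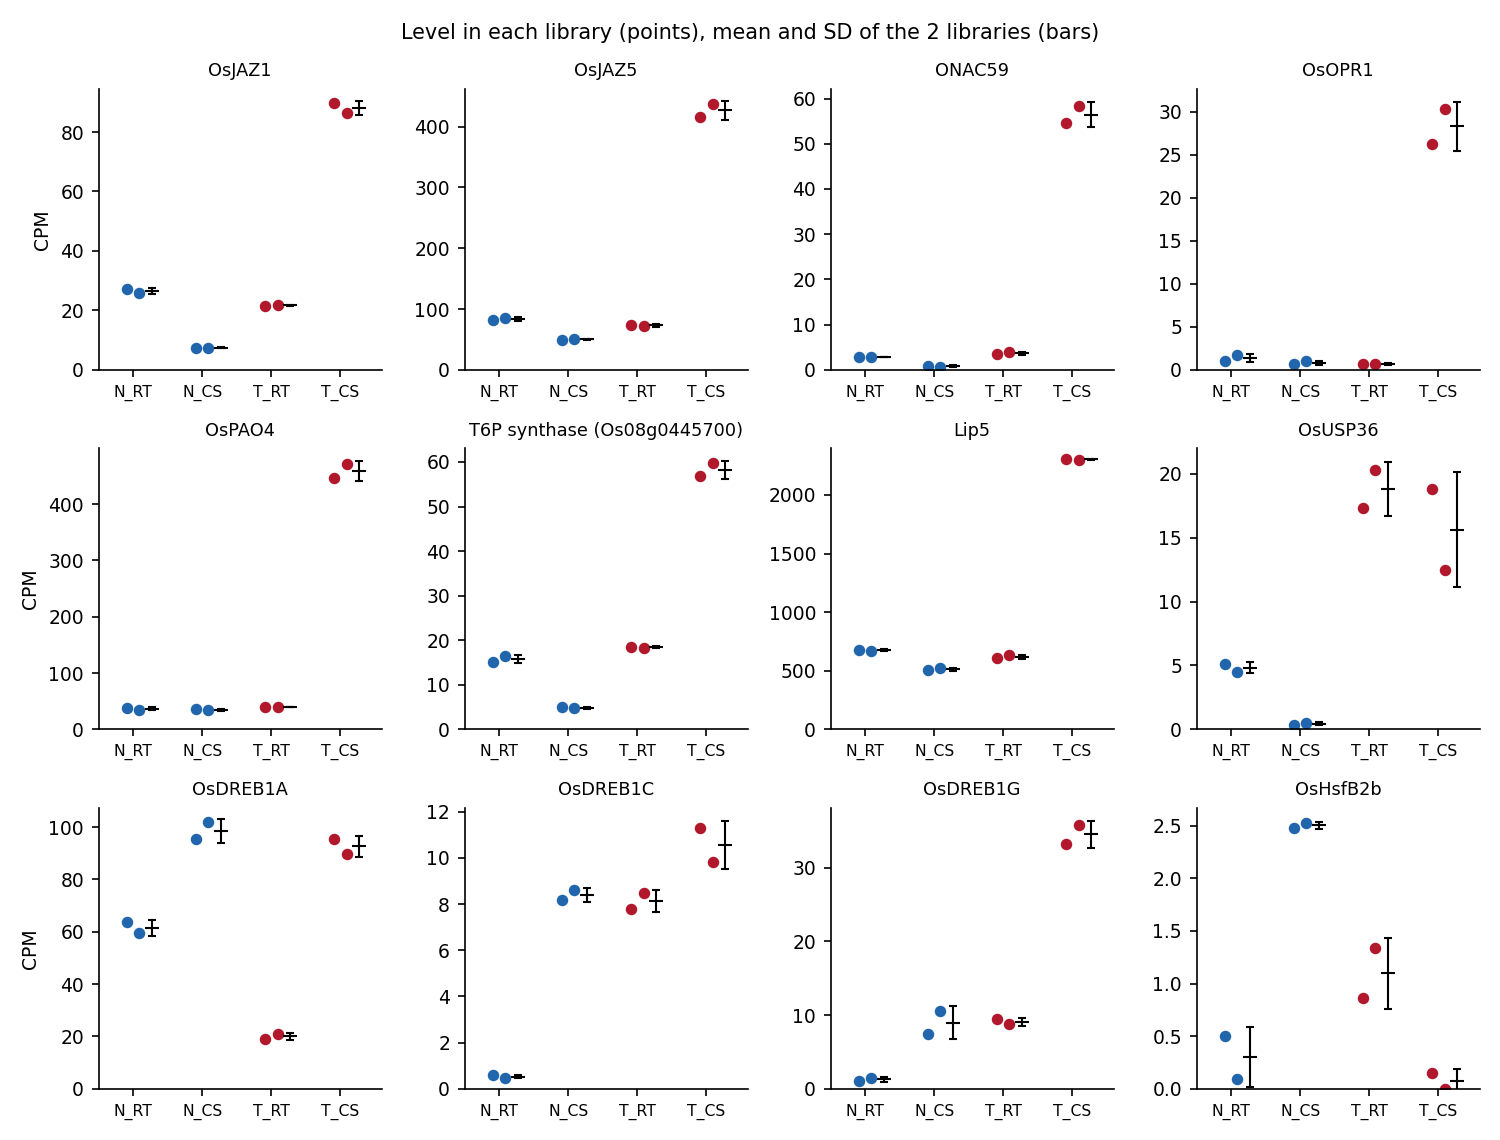
Levels in CPM (vertical axes, from 0, each with its own range) of 12 genes in every library of N_RT, N_CS (blue), T_RT and T_CS (red), with the mean and SD of the 2 libraries as black bars. OsJAZ1, OsJAZ5, ONAC59, Lip5 and the trehalose-6-phosphate synthase (T6P synthase) gene fall in N and rise in T, OsUSP36 drops in N alone, and OsDREB1C is low in N_RT alone.

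OsHsfB2b, a class B heat-shock factor, which lacks the activation domain of class A factors, was the only study-named gene to fall in T while rising in N. It had 0.50 and 0.0973 CPM in N_RT against 2.48 and 2.53 in N_CS, and 0.861 and 1.34 in T_RT against 0.152 and 0 in T_CS. The groups did not overlap within either genotype. Its counts were 15 in N_RT against 105 in N_CS, and 52 in T_RT against 3 in T_CS, which gives a scaled ratio of cold to room temperature of 7.76 in N (95% counting interval 4.5 to 14.4) and 0.0719 in T (0.0144 to 0.222). The difference passed the test (FDR 2.82e-10).

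Of 8 genes for protective proteins, 7 were tested and all 7 had a positive difference (17% of all genes tested). Of these, 4 rose in T alone (6.99%). Late embryogenesis abundant (LEA) proteins are hydrophilic proteins that shield membranes and proteins from drying. OsLEA2, named OsLEA9 elsewhere in the study's text, was at 87.9 and 91.9 CPM in N_RT against 83 and 85.0 in N_CS, and 64.3 and 65.2 in T_RT against 326 and 369 in T_CS. T was the lower genotype at room temperature and the higher after cold, and the difference was 2.52 ± 0.06 (FDR 1.66e-43). OsLEA22 had 10 counts in N_RT against 0 in N_CS, and 19 in T_RT against 110 in T_CS. With 3 counts as the floor of N_CS, its level in N_CS was at least 3.01-fold lower than in N_RT and its level in T_CS at least 41.0-fold higher than in N_CS. Its fall in N did not pass without N_RT replicate 2 (FDR 0.0367) or either N_CS library (FDR 0.0509 and 0.0355).

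Lip5, a low-temperature-induced gene, had opposite responses of small error. It stood at 680 and 667 CPM in N_RT against 505 and 521 in N_CS, and 608 and 630 in T_RT against 2306 and 2302 in T_CS. The 4 groups were fully apart, with responses of -0.39 ± 0.03 in N and 1.90 ± 0.02 in T and a difference of 2.29 ± 0.04 (FDR 1.49e-55). Dip1, named for its induction by dehydration, rose in T alone, by 2.32 ± 0.05 against -0.09 ± 0.05 in N. OsERD7, a gene of early dehydration response, and the dnaJ co-chaperone gene Os08g0452900 rose by 2.55 ± 0.05 and 2.93 ± 0.09 in T, with 0.06 ± 0.07 and -0.17 ± 0.14 in N. OsUSP36, for a universal stress protein, differed without rising in T. It had 5.15 and 4.52 CPM in N_RT against 0.354 and 0.516 in N_CS, and 17.3 and 20.3 in T_RT against 18.8 and 12.5 in T_CS. The T groups overlapped, while N fell by 3.49 ± 0.40, and the difference was 3.22 ± 0.42 (FDR 8.30e-13). In T its response was -0.26 ± 0.12 (FDR 0.0588), and without T_CS replicate 1 it passed as a fall (-0.59, FDR 1.71e-04).

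Trehalose-6-phosphate synthase makes the precursor of trehalose, which also acts as a sugar signal. Both genes fell in N and rose in T (3.47% of all genes tested). Os08g0445700 was at 15.1 and 16.4 CPM in N_RT against 5.04 and 4.70 in N_CS, and 18.6 and 18.3 in T_RT against 56.9 and 59.7 in T_CS. Os08g0414700 was at 21.8 and 18.4 CPM in N_RT, 7.96 and 6.19 in N_CS, 14.1 in each T_RT library, and 27.8 and 30.6 in T_CS. In both genes the N_CS libraries were the lowest and the T_CS libraries the highest. The differences were 3.34 ± 0.15 (FDR 2.17e-31) and 2.55 ± 0.16 (FDR 1.79e-23).

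Genes of secondary metabolism were at low levels. OsGGPS7, for a geranylgeranyl diphosphate synthase, fell in N from 1.00 and 1.12 to 0.133 and 0.361 CPM and rose in T from 1.90 and 1.86 to 7.45 and 6.69 CPM, with a difference of 4.02 ± 0.59 (FDR 6.41e-10). Without N_CS replicate 1 its fall in N did not pass (-1.53, FDR 0.0188). OsTPS3, a terpene synthase gene, rose in T alone, from 0.227 and 0.283 to 5.42 and 5.17 CPM, against 0.269 and 0.438 at RT and 0.133 and 0.103 in the cold in N, with a difference of 5.83 ± 0.94 (FDR 1.96e-08). OsPAO4 encodes a polyamine oxidase, an enzyme that releases hydrogen peroxide. Its levels were 38.4 and 34.5 CPM in N_RT against 35.8 and 33.7 in N_CS, and 40.0 and 40.3 in T_RT against 446 and 471 in T_CS. N_RT and N_CS overlapped and both T_CS libraries stood far above all others, with a difference of 3.59 ± 0.07 (FDR 6.86e-49).

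Of 11 genes for kinases, calcium sensors and related signaling proteins, 7 had a positive difference (17% of all genes tested) and 4 did not pass. OsCAM1, for the calcium sensor calmodulin, was at 87.3 and 86.1 CPM in N_RT against 61.2 and 64.1 in N_CS, and 110 and 117 in T_RT against 245 and 266 in T_CS. It fell by 0.47 ± 0.05 in N and rose by 1.17 ± 0.04 in T (difference 1.64 ± 0.06, FDR 1.20e-33). OsFLS2, whose Arabidopsis counterpart is the receptor of bacterial flagellin, rose in T from 5.12 and 5.55 to 46.9 and 46.2 CPM. In N it went from 3.77 and 4.67 to 2.48 and 2.89 CPM, and this fall was lost without N_RT replicate 2 (FDR 0.0403) or N_CS replicate 1 (FDR 0.0571), whereas the difference was 3.77 ± 0.22 (FDR 2.53e-24).

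Of the kinase genes, 4 rose in T alone (6.99% of all genes tested). The GSO2-like gene Os01g0162200 had 0.346 and 0.876 CPM in N_RT against 0.265 and 0.310 in N_CS, and 0.227 and 0.283 in T_RT against 5.32 and 3.99 in T_CS, a difference of 5.18 ± 0.77 (FDR 5.15e-09). OsRLCK253a had 0.50 and 0.49 CPM in N_RT against 0.221 and 0.155 in N_CS, and 1.59 and 1.62 in T_RT against 20.2 and 20.5 in T_CS, a difference of 5.01 ± 0.62 (FDR 2.69e-11). In both genes the T_CS libraries were the highest by a wide margin. The calcium-dependent protein kinase gene Os08g0540400 was at 1.42 and 0.486 CPM in N_RT against 0.575 and 0.826 in N_CS, and 0.770 and 0.810 in T_RT against 12.6 and 11.6 in T_CS, a difference of 4.45 ± 0.49 (FDR 1.64e-12). The leucine-rich repeat kinase gene Os05g0486100 rose from 30.0 and 31.2 to 203 and 209 CPM in T, while N had 40.2 and 40.5 CPM at RT and 38.4 and 38.7 in the cold.

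OsRBOH, for an NADPH oxidase that makes superoxide, had a positive difference because N fell. It was at 12.1 and 12.7 CPM in N_RT against 6.63 and 6.45 in N_CS, and 29.2 and 30.3 in T_RT against 30.5 and 31.0 in T_CS. T exceeded N at both temperatures, and the response was -0.92 ± 0.12 in N and 0.05 ± 0.08 in T (difference 0.96 ± 0.15, FDR 4.96e-08). The neighbouring ID Os12g0541350 has nearly the same counts, so the value of OsRBOH is uncertain as for OsOPR1. The alcohol dehydrogenase genes of ethanol fermentation, ADH1 and ADH2, were also higher in T at both temperatures. ADH1 had 124 and 122 CPM in N_RT against 130 and 127 in N_CS, and 307 and 322 in T_RT against 602 and 581 in T_CS, and rose in T alone, with a difference of 0.84 ± 0.05 (FDR 3.86e-24).

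ADH2 fell in N alone. It had 2.73 and 2.68 CPM in N_RT against 1.33 and 1.6 in N_CS, and 12.5 and 15.7 in T_RT against 16.0 and 13.7 in T_CS. The T libraries overlapped between RT and CS. The difference of 0.97 ± 0.28 (FDR 2.48e-03) did not pass without N_RT replicate 1 (FDR 0.0115), N_CS replicate 1 (FDR 0.0357) or T_RT replicate 1 (FDR 0.0175), and the fall in N did not pass without N_RT replicate 1 (FDR 0.0104) or N_CS replicate 1 (FDR 0.0358). The beta-1,3-glucanase gene, of a class of enzymes that attack fungal walls, had 7 counts in N_RT against 2 in N_CS, and 35 in T_RT against 372 in T_CS. Its scaled ratio of cold to room temperature was 13.2 in T (95% counting interval 9.36 to 19.3) and 0.317 in N (0.0321 to 1.66), and its difference passed the test (FDR 5.21e-05).

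For 13 named genes the difference was not shown, which at these counts does not mean that the responses were alike. OsWRKY15 had a difference of 1.34 ± 0.55 (FDR 0.0423) and passed without N_RT replicate 2 (1.93, FDR 3.62e-03). The NAK kinase gene had 1.65 ± 1.24 (FDR 0.309), with a 95% interval of -0.82 to 4.13. Of the other 11, OsERF109a and OsERF109b are given above, and 9 had 3 or fewer counts in at least 1 group. OsOPR6 had 0 counts in both N groups, 1 in T_RT and 43 in T_CS, and the protein phosphatase 2C gene had 1 count in N_RT, 0 in N_CS and T_RT, and 24 in T_CS. These 2 genes and the Bowman-Birk trypsin inhibitor gene, with 26 counts in T_CS and at most 1 in each other group, were seen almost only in cold T. OsWRKY24 and MAPKKK17_18 had 75 and 64 counts in T_CS and 2 each in N_CS. The receptor-like kinase gene Os05g0524500 had the opposite course in T, with 277 counts in T_RT and 61 in T_CS, against 1 and 2 in N. Another 6 named genes were not tested. The dnaJ gene Os01g0702450, OsCCR, OsC4H and OsTPS23 had 15 to 20 counts in T_CS and at most 6 in any other group, OsPAO6 had 5 counts in T_CS alone, and the alpha-amylase gene had 1 count in all.

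Genes encoded in the organelles rose with cold or did not pass the test. Poly(A) selection captures organelle RNA only in part, and organelle IDs took 0.0196% to 0.0220% of counts at RT and 0.0297% to 0.0311% in the cold. Of 112 named organelle genes, 30 were tested. In N 18 rose (19.7% of all genes tested), and in T 13 rose (26.2%). None fell in N (21.1% of all genes) or in T (26.2%), and median responses were 1.75 in N and 1.08 in T. The difference passed in 2 of the 30, beside 32.7% of all genes. That share depends on the level in the highest group, and the 30 were not matched for level. Over all genes it was 3.35% below 1 CPM, 12.5% at 1 to 5 CPM and 27.2% at 5 to 20 CPM. The gene psbB, for a chlorophyll-binding core protein of photosystem II, had 2.42 and 2.82 CPM in N_RT against 10.7 and 12.9 in N_CS, and 3.63 and 3.56 in T_RT against 5.68 and 5.79 in T_CS. It rose in both genotypes and more in N, where the cold libraries were the highest of the 8, with a difference of -1.5 ± 0.25 (FDR 7.83e-07). Its rise in T did not pass without T_RT replicate 2 (FDR 0.0108). The response of the ribosomal protein gene rps1 in N was -0.47 ± 0.20, and -0.715 without N_RT replicate 2. In the fit of all 8 libraries, neither the response in N nor that of 0.47 ± 0.21 in T passed. Their difference did pass, at 0.95 ± 0.30 (FDR 6.57e-03). This difference was lost without N_RT replicate 1 (FDR 0.0992), N_CS replicate 1 (0.0271), T_RT replicate 1 (0.0336) or 2 (0.0104), or T_CS replicate 1 (0.0378).

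Among IDs without a name in the tables used that reached 5 CPM and whose differing groups did not overlap, Os07g0115200 had the most negative difference. It had 1 count in N_RT against 2 in N_CS, and 1163 in T_RT against 2 in T_CS, so that it was seen almost only in T at room temperature. Its difference (FDR 1.94e-04) did not pass without N_CS replicate 1 (FDR 0.982), which leaves 0 counts in N_CS. Os08g0167800 came next, with 0.461 and 0.243 CPM in N_RT against 2.26 and 2.53 in N_CS, and 20.1 and 14.9 in T_RT against 0.253 and 0.394 in T_CS. It fell by 5.74 ± 0.45 in T and rose by 2.69 ± 0.41 in N, a difference of -8.44 ± 0.61 (FDR 6.60e-26). The most positive difference among these unnamed IDs was that of Os02g0639300, with 8 counts in N_RT against 3 in N_CS, and 22 in T_RT against 569 in T_CS, a scaled ratio of cold to room temperature of 32.2 in T (95% counting interval 21.1 to 51.9) and 0.416 in N (0.0711 to 1.73). The next of them was Os06g0216350, the neighbour of OsOPR1 named above. Of the named genes with a passing difference, OsWRKY8 and OsLEA22 had larger fitted differences than both of these IDs.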

How the data were processed

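RNA of 4 pools was sequenced in 8 libraries after poly(A) selection and strand-marking library preparation. Before deposit, the authors used Trimmomatic, STAR with the IRGSP-1.0 genome, and featureCounts 1.6.4. The deposited files hold whole-number counts for each gene ID with unequal library totals, so they were treated as raw, whereas the methods describe them as normalized. Strand setting and multi-mapped reads are not covered in the sources used here, so overlapping and near-identical genes are uncertain.

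The analysis used edgeR 4.0.16 under R 4.3.3. After filterByExpr (minimum count 10, minimum total 15), libraries were scaled by TMM and fitted with 1 mean per group in a quasi-likelihood model over the 8 libraries. The interaction contrast and the 4 contrasts between groups were tested with Benjamini-Hochberg adjustment at an FDR of 0.01. SE and 95% intervals come from the fitted means, dispersions and quasi-dispersions. Where a group had 1 to 3 counts, a ratio of summed counts scaled to library size is given with its 95% exact binomial interval. Against 0 counts, the other group is set against 3 counts over the group, which leaves out its own counting error. The finite limit of the same binomial interval is then given beside it. The intervals cover counting error only. The 2 libraries of each pool differed by more than sampling noise (chi-square per degree of freedom 1.71 to 2.39), and none was counted as a duplicate.

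The named genes are those that the study gives with an ID, of which up to 4 a list with the largest passing difference were to be shown by library, and up to 2 unnamed IDs at each extreme among those reaching 5 CPM whose differing groups did not overlap. Library values of a few more genes were added after their values were seen. OsERF109a is the gene called OsDERF5 in the study's text, where its ID has an extra digit, and OsDEES1 could not be matched because its ID is incomplete. The members and lists were chosen with earlier results of these data known. The reference table used holds 1 ID of the files and describes another assembly, so no other names and no sequences are printed. Alternatives were DESeq2 1.42.0, limma voom (limma 3.58.1), a likelihood ratio test, other scaling, filters and thresholds, the replicate number as a block, and leaving out each library. The steps were tested on simulated data.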

Additional observations from a re-analysis of the deposited data

Results flagged for a closer look

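The genes below are the named genes whose cold responses differed between T and N by the test of the difference itself, which is what brought them here. Values are differences of responses on the log2 scale, positive where the response was the more positive in T, by edgeR's quasi-likelihood test at an FDR of at most 0.01. No explanation was weighed. Among the JAZ genes, the difference was 3.87 for OsJAZ1, 3.83 for OsJAZ2, 3.29 for OsJAZ5, 3.05 for OsJAZ8/9 and 6.07 for OsJAZ11. For the enzymes of jasmonate synthesis it was 4.06 for OsLOX1a, 2.25 for OsLOX1b, 1.37 for OsLOX2 and 6.07 for OsOPR1. The auxin-conjugating enzymes OsGH3-6 and OsGH3-8 had 2.65 and 2.56.

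Of the transcription factors, OsWRKY8 had a difference of 7.13, OsWRKY108 of 2.95, OsWRKY67 of 3.58, OsWRKY113 of 2.29, OsWRKY76 of 1.17 and OsWRKY62 of -1.05. ONAC59 had 5.74, the bHLH148-like gene 5.70 and OsERF27 3.74. The rice DREB1 genes had 1.53 for OsDREB1A, -3.57 for OsDREB1C and -0.91 for OsDREB1G. OsHsfB2b had -6.65.

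For the protective proteins the difference was 2.29 for Lip5, 2.40 for Dip1, 2.49 for OsERD7, 2.52 for OsLEA2, 8.10 for OsLEA22, 3.22 for OsUSP36 and 3.10 for the dnaJ gene Os08g0452900. The trehalose-6-phosphate synthase genes had 3.34 (Os08g0445700) and 2.55 (Os08g0414700), OsGGPS7 had 4.02, OsTPS3 5.83 and OsPAO4 3.59. Among the signaling genes it was 1.64 for OsCAM1, 3.77 for OsFLS2, 0.96 for OsRBOH, 5.01 for OsRLCK253a, 5.18 for the GSO2-like kinase, 2.82 for the leucine-rich repeat kinase Os05g0486100 and 4.45 for the calcium-dependent protein kinase. ADH1 had 0.84, ADH2 0.97 and the beta-1,3-glucanase gene 5.26.

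The organelle genes psbB and rps1 had -1.5 and 0.95. The unnamed IDs described above had 6.19 (Os02g0639300), 6.04 (Os06g0216350), -9.69 (Os07g0115200) and -8.44 (Os08g0167800). The fitted values of OsWRKY8, bHLH148-like, OsHsfB2b, OsLEA22, beta-1,3-glucanase, Os02g0639300 and Os07g0115200 rest on a group of 3 or fewer counts, depend on the prior count and are no bounds.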

How the results depend on the processing

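The 4810 positive and 4410 negative differences (the response more positive in T or in N) ranged over 4260 to 4686 and 3518 to 4175 when 1 library was left out. Without 1 library, the classes ranged over 780 to 950 genes (rose in T, fell in N), 516 to 696 (fell in T, rose in N), 1704 to 2161 (rose in T alone), 1358 to 1671 (fell in T alone), 485 to 837 (rose in N alone), 598 to 822 (fell in N alone), 425 to 722 (rose in both, more in T), 187 to 261 (rose in both, more in N), 609 to 848 (fell in both, more in T), 260 to 371 (fell in both, more in N) and 201 to 249 (neither passed). DESeq2 with its size factors gave 2847 more positive in N, 428 that fell in T and rose in N, 476 that rose in N alone, 166 that rose and 229 that fell in both but more in N, and 490 that fell in both but more in T. The positive share was 58.8% with DESeq2 and 52.2% in the edgeR test. With total counts in place of TMM, 402 genes rose in both but more in T and 171 more in N. That scaling set the median response of all genes at -0.10 in N and -0.13 in T, and falls in N then passed for OsLEA2, Dip1, OsPAO4 and Os05g0486100, a fall in T for OsUSP36 and a lower level of OsDREB1A in T_CS than in N_CS (FDR 4.25e-03), while the rise of OsGH3-8 in T did not (FDR 0.0165). At an FDR of 0.05, 1044 genes rose in both but more in T, 438 rose in both but more in N and 554 fell in both but more in N. A test against a log2 difference of 1 (glmTreat) left 885 positive and 521 negative differences. Requiring a log2 of 1 left 1821 and 1565, and a log2 of 2 left 493 and 474, by their construction. Otherwise the cause was not tested.

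Library numbers share only a number (correlation of deviations -0.04 to 0.03), and with the replicate block the counts were 4734 and 4333, with 9049 genes shared with the fit without it. The block ended 1 named call, the rise of OsGH3-8 in T (FDR 0.0117). No named difference changed sign in the settings run. Beyond the libraries named above, DESeq2 ended the differences of OsGH3-8, OsDREB1G and rps1, the falls of OsWRKY8 and OsLEA22 in N and the rises of OsGH3-8 (FDR 0.0393), OsWRKY15, OsERF108 and OsERF118 in T. Voom ended the differences of OsDREB1G and ADH2 and the falls of OsWRKY8, OsFLS2 and ADH2 (FDR 0.012) in N, while OsOPR6 and the protein phosphatase 2C gene passed with voom. Depth limits genes below 5 CPM, and 2 libraries of 1 pool a group limit every p-value to these pools.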
